A study of Mus musculus with 2 samples.

Results

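The genes described here are the core and accessory genes of the cell division cycle that were listed in digital gene expression profiles of mouse liver. They were chosen by name, namely symbols that begin with Ccna to Ccnh, Cdk, Cdkn, Mcm, E2f or Cdc followed by a digit, together with Rb1, Trp53, Mdm2, Pcna, Myc, Gadd45a, Gadd45b and Gadd45g. Of 8551 listed genes, 55 met this rule. Pcna was not analysed here. The choice by name also took in genes that do not drive the cell cycle, such as the small GTPase Cdc42 and its effectors, and 34 of the 55 genes were assigned to the cell cycle itself.

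Both groups were 9-week-old male mice on a C57BL/6 background whose livers were taken about 3 h into the light phase. The normal group was wild type. The diabetic group was db/db, a genotype that lacks a working leptin receptor and becomes obese and diabetic. There was 1 library per group, so no difference between them has a replicate check, and no source says whether the RNA of several mice was pooled. Since whole liver was used, fewer cells of a type and less RNA per cell cannot be told apart. Genotype, supplier of the mice and library likewise cannot be told apart.

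In the cell cycle, D-type cyclins, with partner kinases, and then cyclin E with Cdk2 release E2f factors from the retinoblastoma protein, and E2f factors switch on genes for DNA replication. Replication origins are licensed in G1 when the Mcm2 to Mcm7 helicase is loaded, and the helicase becomes active in S phase when Cdc45 joins it. Cdk inhibitors of the Cip/Kip and Ink4 classes hold these kinases back, and p53, its antagonist Mdm2 and the Gadd45 proteins tie the cycle to stress. Hepatocytes of an adult liver are mostly quiescent but can re-enter the cycle after injury or loss of tissue.

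The libraries were made by cutting cDNA with DpnII at GATC, a protocol in which the reads of a gene usually come from the last such site before its poly(A) tail. The cDNA had been primed with random hexamers, so reads from earlier sites cannot be told apart. For orientation, the tag of 20 bases at the last GATC of a coding transcript was looked up in the GENCODE M21 transcripts (GRCm38). These are reference sequences and not reads of the study. A GATC site was present in every coding transcript of 48 of the 55 genes, and in the longest transcript the last site lay in the 3′ untranslated region for 41 genes and in the coding sequence for 11. The tags of the genes on which the results below turn are given with the cut site in capitals.
Cdc45l: GATCtccttcgagtatgacc
Mcm4: GATCcttagattattagttt
E2f1: GATCtgagatggggagggta
E2f3: GATCttaccacttcaaatgg
E2f4: GATCtctgggcagtcatggt
E2f8: GATCccagtggcatcatcgg
Cdkn2c: GATCgtctttaaccctcccg
Gadd45a: GATCagtgggtgcccgtgat
Gadd45b: GATCgcttgcatatttttaa
Gadd45g: GATCccgggcaatgctttca

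None of these 10 tags was found at a GATC site in the transcripts of another gene, in either orientation. The tag of Cdkn2c is unusual in its place, because in both coding transcripts of this gene the last GATC lies before the coding sequence, 1056 bases from the end of the longer one. For 5 members a tag of at least 1 transcript was found in another gene on the same strand, namely Cdc26, Cdc37l1, Cdc42ep2, Cdk5rap2 and Mcm7, and for 4 members on the opposite strand, namely Ccnd1, Cdc37l1, Cdc42bpb and Cdc42ep2. No source says how tags common to several genes were counted, so values of these genes are less certain.

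Levels are in TPM, the tags of a gene scaled to the clean tags of its library. The steps of the values gave 10278531 clean tags for the normal and 13508232 for the diabetic library, so that 1 read was worth 0.0973 and 0.0740 TPM. Log2 ratios are diabetic over normal, and each range in parentheses after a ratio or a share is its exact 95% Clopper-Pearson interval, which covers counting error only. A gene was called when it differed at least 1.5-fold with a false discovery rate (FDR) under 0.001. The FDR came from an exact binomial test on the reads, adjusted over all listed genes by the Benjamini-Hochberg method, and it compares the 2 libraries and not the conditions. The median listed gene had a log2 ratio of 0.25, and scaling by trimmed mean of M values (TMM) took 0.25 off each log2 ratio.

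Most members, like most listed genes, were expressed at low levels. Median member depth was 58 reads (normal) and 107 reads (diabetic), against 71 and 111 reads for all listed genes. A mean under 10 TPM was found for 38 of the 55 members and for 4878 of the 8551 listed genes. Fewer than 10 reads were counted for 6 members in the normal library and for 2 in the diabetic library. Because the table holds genes with a mean of about 1 TPM or more, a gene under 1 TPM in one library was listed only through the other, where it is high. Among the members this holds for Cdc45l, Mcm4, Gadd45b, Ccnb2, Ccne1 and Myc, under 1 TPM in normal liver, and for E2f2 and E2f8, under 1 TPM in diabetic liver. Of these, Cdc45l, Mcm4 and Gadd45b were called, and E2f8 was called under TMM scaling only. Given the low level in one library, the direction of each gene named here was fixed by this limit. The most abundant member was Cdc42 in both libraries, at 82.1 and 77.95 TPM. The reads of all members together came to 687.56 TPM in normal and 689.74 TPM in diabetic liver.

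**Figure D1:**
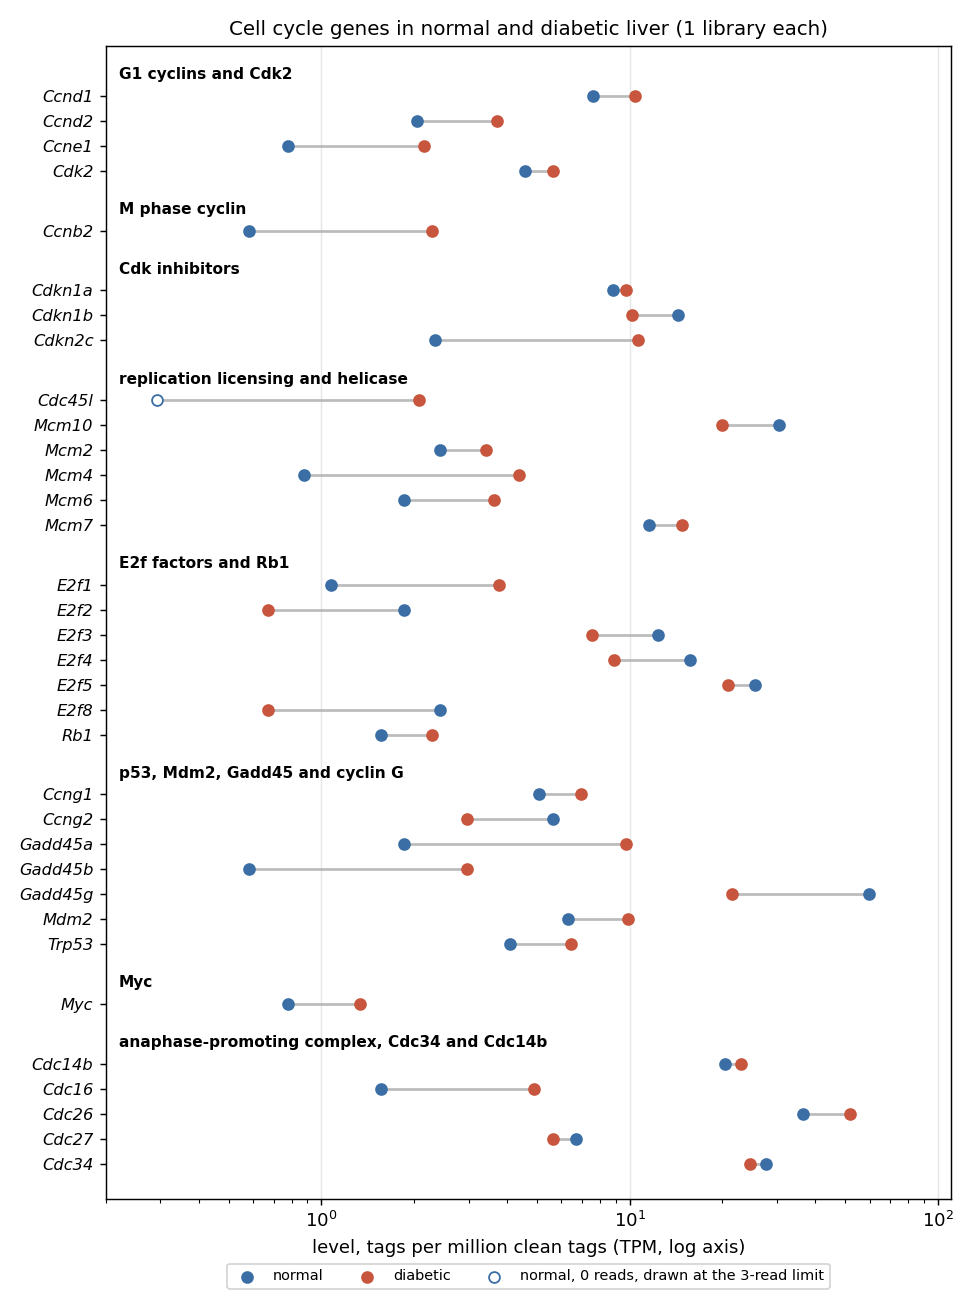
Level of the 34 members assigned to the cell cycle in the normal (blue) and diabetic (red) library, in TPM on a log axis, grouped by role. Each point is 1 library, and the open point marks Cdc45l, which had 0 reads in the normal library and is drawn at the limit of 3 reads.

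Of the 55 members, 10 were called higher in the diabetic library and 5 were called lower. Among all listed genes, 22.9% were called higher and 8.19% lower, against 18.2% and 9.09% of the members, a smaller share for higher calls and a like share for lower calls. Under TMM scaling, which centres the typical gene near 0, 7 members were called higher and 8 lower, against 14.9% and 13.4% of all listed genes. The median log2 ratio of the members was 0.46 with the deposited values and 0.21 under TMM scaling. Among the members with a mean under 10 TPM, a limit chosen after the values were seen, 9 of 38 were called higher and 1 was called lower. Of all listed genes under that limit, 14.0% were called higher and 5.74% lower. Under TMM scaling it was 7 and 3 of those 38 members, against 8.71% and 9.47% of the listed genes. By the fold alone, 20 of the 55 members were higher and 9 lower, against 34.4% and 15.3% of all listed genes.

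**Figure D2:**
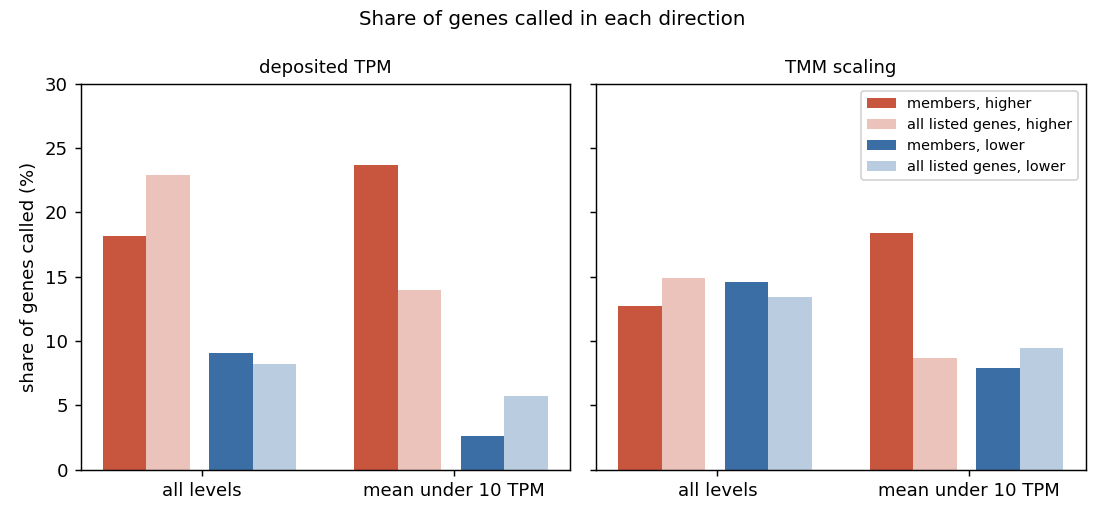
Share of genes called higher (red) and lower (blue) in the diabetic library, for the members (dark bars) and all listed genes (pale bars), at all levels and among genes with a mean under 10 TPM. The left panel uses the deposited TPM and the right panel TMM scaling, and at all levels the share of members called higher, 18.2%, lay below the 22.9% of all listed genes.

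The calls fell on single genes, and 0 genes were called among the 4 G1 cyclin and Cdk2 genes, the mitotic cyclin, Myc and the 5 transcription and splicing genes. Called higher were Cdc45l, Gadd45a, Gadd45b, Mcm4, Cdkn2c, E2f1, Cdc16, Cdc42ep4, Cdkn2aip and Cdc42bpb. Called lower were Gadd45g, E2f4, Mcm3ap, E2f3 and Mcm10. The called genes E2f1, Cdkn2aip and Cdc42bpb were not called under any of 4 other scalings between the libraries, and Cdc16 was not called under median-ratio scaling. The remaining 11 were called under each of them.

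**Figure D3:**
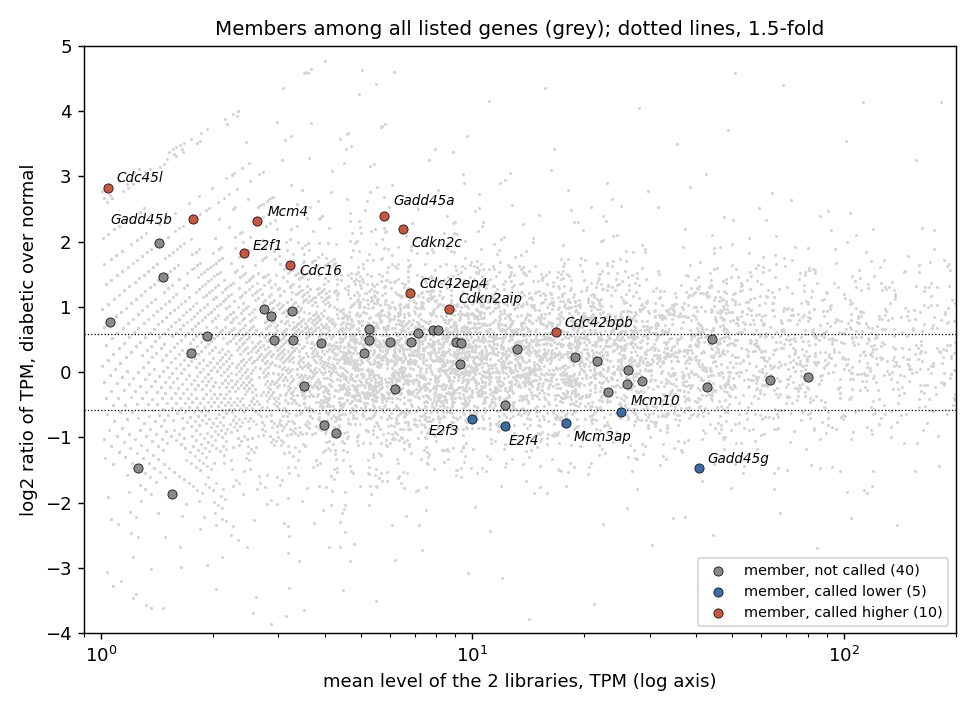
Log2 ratio of TPM, diabetic over normal, against the mean level of both libraries on a log axis, for all listed genes in grey and the 55 members as larger points, red where called higher, blue where called lower and dark grey where not called, with genes outside the drawn range left out. Members called higher (10) lay mostly to the left, at low levels, and 4 of the 5 members called lower lay at a mean above 10 TPM.

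Of the 6 genes of replication licensing and the helicase, 2 were called higher, 1 was called lower and 3 did not pass the test. Cdc45l, now named Cdc45, encodes the factor that completes the active helicase. Normal liver gave 0 reads, which allows a level of up to 0.292 TPM, and diabetic liver 28 reads or 2.07 TPM. Set against the limit of 3 reads, the diabetic level was at least 7.10-fold higher (exact test FDR 7.0e-07), and the exact interval of its log2 ratio starts lower, at 2.43. Cdc45l was listed only through the diabetic library, so its direction was fixed by the limit of the table.

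Mcm4, a subunit of the Mcm2 to Mcm7 helicase, had 9 normal and 59 diabetic reads, or 0.88 and 4.37 TPM. Its log2 ratio of 2.31 (1.30 to 3.52, exact test FDR 8.2e-07) was the highest among the 4 listed subunits. Mcm4 was listed only through the diabetic library, so its direction was fixed by the limit of the table. Mcm6 was at 1.85 TPM in normal and 3.63 TPM in diabetic liver, a log2 ratio of 0.97 (0.18 to 1.82) that did not pass the test at an exact test FDR of 0.027. The interval of Mcm6 overlapped that of Mcm4, and a difference between their ratios was not tested.

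For Mcm2 the levels were 2.43 and 3.41 TPM, with 25 and 46 reads, and the interval of its log2 ratio of 0.49 reached from -0.25 to 1.25. Mcm7, the most abundant of the 4, was at 11.6 TPM in normal and 14.8 TPM in diabetic liver, a log2 ratio of 0.35 (0.02 to 0.69, exact test FDR 0.063). All 4 subunits thus lay above 0, Mcm7 only narrowly under the other scalings, but only Mcm4 passed the test. Summed over these 4 genes, the reads went from 172 to 354, a log2 ratio of 0.65 (0.38 to 0.92) with the deposited values. The sum includes Mcm4, which was listed only through the diabetic library, and the other scalings lower it by 0.25 to 0.31. Mcm3 and Mcm5 were not analysed here.

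Mcm10 went the other way. This factor, which is not part of the ring but helps to activate it, was at 30.45 TPM in normal and 19.9 TPM in diabetic liver, with 313 and 269 reads. Its log2 ratio was -0.61 (-0.85 to -0.37, exact test FDR 1.5e-06), close to the 1.5-fold limit. Mcm3ap, taken in by its name, encodes a large protein of nuclear mRNA export that also binds Mcm3. It was at 22.6 TPM in normal and 13.2 TPM in diabetic liver, a log2 ratio of -0.78 (-1.07 to -0.49, exact test FDR 2.6e-07).

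The E2f family split. E2f1, an activator of replication genes, had 11 normal and 51 diabetic reads, or 1.07 and 3.78 TPM. Its log2 ratio was 1.82 (0.86 to 2.91, exact test FDR 9.1e-05). Under TMM scaling the log2 ratio was 1.57 and the exact test FDR 0.0011, just short of the criterion. E2f1 was the one listed E2f gene with a value above 0.

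The other 5 E2f genes lay below 0. Among them E2f2 and E2f8 were listed only through the normal library, so their direction was fixed by the limit of the table. E2f4, a repressor and the E2f best known from resting cells, was at 15.7 TPM in normal and 8.88 TPM in diabetic liver, a log2 ratio of -0.82 (-1.17 to -0.47, exact test FDR 8.3e-06). E2f3, whose isoforms include an activator, was at 12.4 and 7.55 TPM, a log2 ratio of -0.71 (-1.101 to -0.32, exact test FDR 0.00063). Both passed the test, E2f3 closely.

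E2f8, an atypical repressor linked to polyploid hepatocytes, had 25 normal and 9 diabetic reads. Its log2 ratio was -1.86 (-3.15 to -0.72), with an exact test FDR of 0.0011 that missed the criterion by little, and under TMM scaling it was called lower. E2f2, also an activator, had 19 and 9 reads, a log2 ratio of -1.47 (-2.80 to -0.26) that did not pass. E2f5, a repressor like E2f4, was the most abundant of the family at 25.6 and 20.8 TPM. Its log2 ratio of -0.30 (-0.55 to -0.05) stayed within 1.5-fold.

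Since shares within a family do not depend on the scaling between libraries, the make-up of the E2f reads was also computed. The shares of a family are tied to one another, so a higher share of one gene lowers those of the others. E2f1 took 1.82% of the E2f reads of the normal library (0.910% to 3.22%) and 8.92% in diabetic liver (6.71% to 11.6%). These intervals do not overlap. E2f8 took 4.13% and 1.57%, with intervals of 2.69% to 6.03% and 0.722% to 2.97% that do overlap. The 6 genes had 606 normal and 572 diabetic reads, a log2 ratio of -0.48 (-0.64 to -0.31).

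Rb1 encodes the retinoblastoma protein that E2f activators bind. It had only 16 and 31 reads, and its log2 ratio of 0.55 had an interval from -0.35 to 1.53.

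None of the cyclins that act at the start and end of the cycle passed the test, and several had few reads. Ccnb2, a B-type cyclin of mitosis, had 6 normal and 31 diabetic reads, or 0.58 and 2.29 TPM. Its log2 ratio of 1.98 (0.69 to 3.53) came with an exact test FDR of 0.0018. Ccne1, the cyclin E that pairs with Cdk2, had 8 and 29 reads, a log2 ratio of 1.46 (0.30 to 2.80, exact test FDR 0.016). Both Ccnb2 and Ccne1 were listed only through the diabetic library, so their direction was fixed by the limit of the table.

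The D-type cyclins respond to growth factors and nutrients. Ccnd1, the main D cyclin of hepatocytes, was at 7.59 TPM in normal and 10.4 TPM in diabetic liver, a log2 ratio of 0.46 (0.05 to 0.88, exact test FDR 0.044). Ccnd2 was at 2.04 and 3.70 TPM, a log2 ratio of 0.86 (0.10 to 1.67). Cdk2 was at 4.57 and 5.63 TPM with a log2 ratio of 0.30, which was below 0 under median-ratio scaling. The genes for the partner kinases of the D and B cyclins were not analysed here.

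Of the 3 listed Cdk inhibitors, 1 was called higher and 0 were called lower. Cdkn2c encodes p18, an Ink4 inhibitor of the kinases that pair with D cyclins. It had 24 normal and 144 diabetic reads, or 2.33 and 10.7 TPM, a log2 ratio of 2.19 (1.56 to 2.88, exact test FDR 6.6e-15). This was among the largest differences of all members. In the reference the last GATC of this gene lies before the coding sequence, and which sites gave its reads is not known.

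Cdkn1a encodes p21, the Cip/Kip inhibitor best known as a target of p53. It was at 8.85 TPM in normal and 9.70 TPM in diabetic liver, and its log2 ratio of 0.13 (-0.27 to 0.53, exact test FDR 0.63) turned below 0 under each of 4 other scalings. Cdkn1b encodes p27, the inhibitor that keeps cells in G0. It was at 14.3 and 10.1 TPM, a log2 ratio of -0.50 (-0.84 to -0.15) that stayed within 1.5-fold, and under TMM scaling it was called lower at -0.75.

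The make-up of the inhibitor reads differed between the libraries. Cdkn2c took 9.16% of the 262 inhibitor reads in normal liver (5.96% to 13.3%) and 34.95% of the 412 in diabetic liver (30.3% to 39.8%). The share of Cdkn1b was 56.1% in normal (49.9% to 62.2%) and 33.3% in diabetic liver (28.7% to 38.0%). This lower share is tied to the higher share of Cdkn2c, and Cdkn1b itself was not called with the deposited values. The share of Cdkn1a was 34.7% and 31.8%, with overlapping intervals.

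The clearest opposite pair was in the Gadd45 family, small stress-induced proteins that bind Pcna, p21 and stress kinases. Gadd45g was the most abundant of the 3 in normal liver, with 615 reads or 59.8 TPM, and diabetic liver gave 291 reads or 21.5 TPM. Its log2 ratio was -1.47 (-1.68 to -1.27, exact test FDR 3.2e-49), the only member called lower at 2-fold.

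Gadd45a, the family member induced by p53, had 19 normal and 131 diabetic reads, or 1.85 and 9.70 TPM. Its log2 ratio was 2.39 (1.69 to 3.17, exact test FDR 6.1e-15). Gadd45b, which is also induced by inflammatory signals, had 6 and 40 reads, a log2 ratio of 2.35 (1.096 to 3.87, exact test FDR 5.5e-05). Gadd45b was listed only through the diabetic library, so its direction was fixed by the limit of the table. Gadd45a and Gadd45b were about 5-fold higher, at 5.24-fold and 5.10-fold, and their intervals overlapped.

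In shares, Gadd45g made up 96.1% of the 640 Gadd45 reads in normal liver (94.3% to 97.5%) and 63.0% of the 462 in diabetic liver (58.4% to 67.4%). Gadd45a went from 2.97% (1.80% to 4.60%) to 28.4% (24.3% to 32.7%). Gadd45b went from 0.938% (0.345% to 2.03%) to 8.66% (6.26% to 11.6%). None of the 3 pairs of intervals overlaps, but the 3 shares are tied to one another and are not separate results. Gadd45b was also listed only through the diabetic library, so no support is drawn from its shares.

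**Figure D4:**
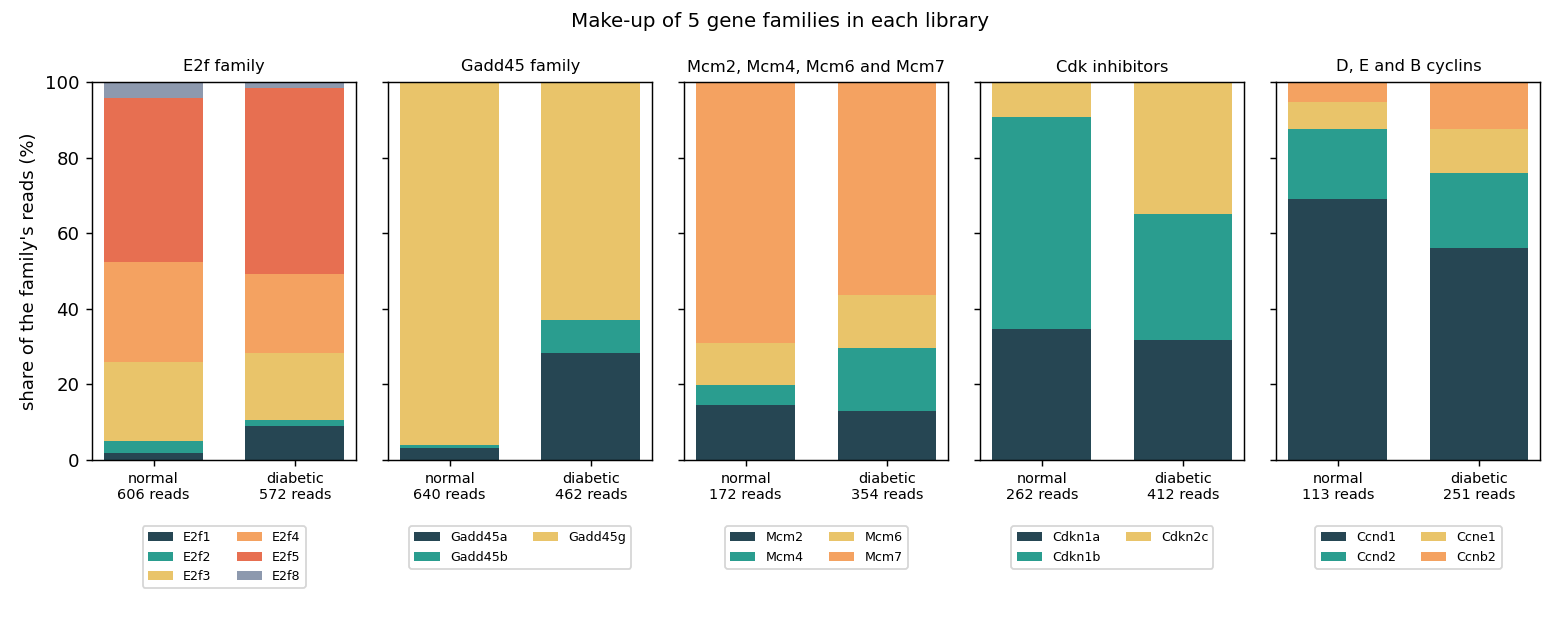
Share of each gene in the reads of its family, in percent, for the normal and the diabetic library, with the number of reads of the family under each bar. Gadd45g goes from 96.1% to 63.0% of the Gadd45 reads, Cdkn2c goes from 9.16% to 34.95% of the inhibitor reads and E2f1 from 1.82% to 8.92% of the E2f reads.

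Neither Trp53 nor Mdm2 passed the test. Trp53, which encodes p53, was at 4.09 TPM in normal and 6.44 TPM in diabetic liver, with 42 and 87 reads, a log2 ratio of 0.65 (0.11 to 1.22, exact test FDR 0.031). Mdm2, the ubiquitin ligase that p53 induces and that degrades p53, was at 6.32 and 9.85 TPM, a log2 ratio of 0.64 (0.20 to 1.09, exact test FDR 0.0072). Under TMM scaling the log2 ratios were 0.40 and 0.39, below 1.5-fold.

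Ccng1, a cyclin-like target of p53, was at 5.06 and 6.96 TPM, a log2 ratio of 0.46 (-0.04 to 0.98). Its relative Ccng2, known to accompany cell cycle exit, was at 5.64 TPM in normal and 2.96 TPM in diabetic liver. The log2 ratio of Ccng2 was -0.93 (-1.55 to -0.32, exact test FDR 0.0048), and under TMM scaling it was called lower. The 2 cyclin G genes therefore lay on opposite sides of 0, the interval of Ccng1 including 0.

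Myc, the growth-promoting transcription factor, was among the lowest members with 8 and 18 reads. Its log2 ratio of 0.77 had an interval from -0.50 to 2.19, so that no difference was detectable at this depth.

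Of the 5 genes of the anaphase-promoting complex with Cdc34 and Cdc14b, 1 was called higher and 0 lower. Cdc16, a subunit of the anaphase-promoting complex, had 16 normal and 66 diabetic reads, a log2 ratio of 1.65 (0.85 to 2.54, exact test FDR 3.1e-05). Cdc27, which sits beside Cdc16 in the same complex, was at 6.71 and 5.63 TPM, a log2 ratio of -0.25 (-0.74 to 0.24). Cdc26, a small subunit, was at 36.4 and 51.9 TPM. Its log2 ratio of 0.51 (0.33 to 0.70, exact test FDR 8.7e-08) passed the test but lay within 1.5-fold. The intervals of Cdc16 and Cdc27 do not overlap, so the reads of these subunits did not keep a fixed ratio between the libraries.

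Cdc34, a ubiquitin-conjugating enzyme, was at 27.7 and 24.6 TPM, and Cdc14b, a phosphatase, at 20.4 and 22.95 TPM. Neither passed the test, and Cdc14b was above 0 with the deposited values and below 0 under the 4 other scalings.

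**Figure D5:**
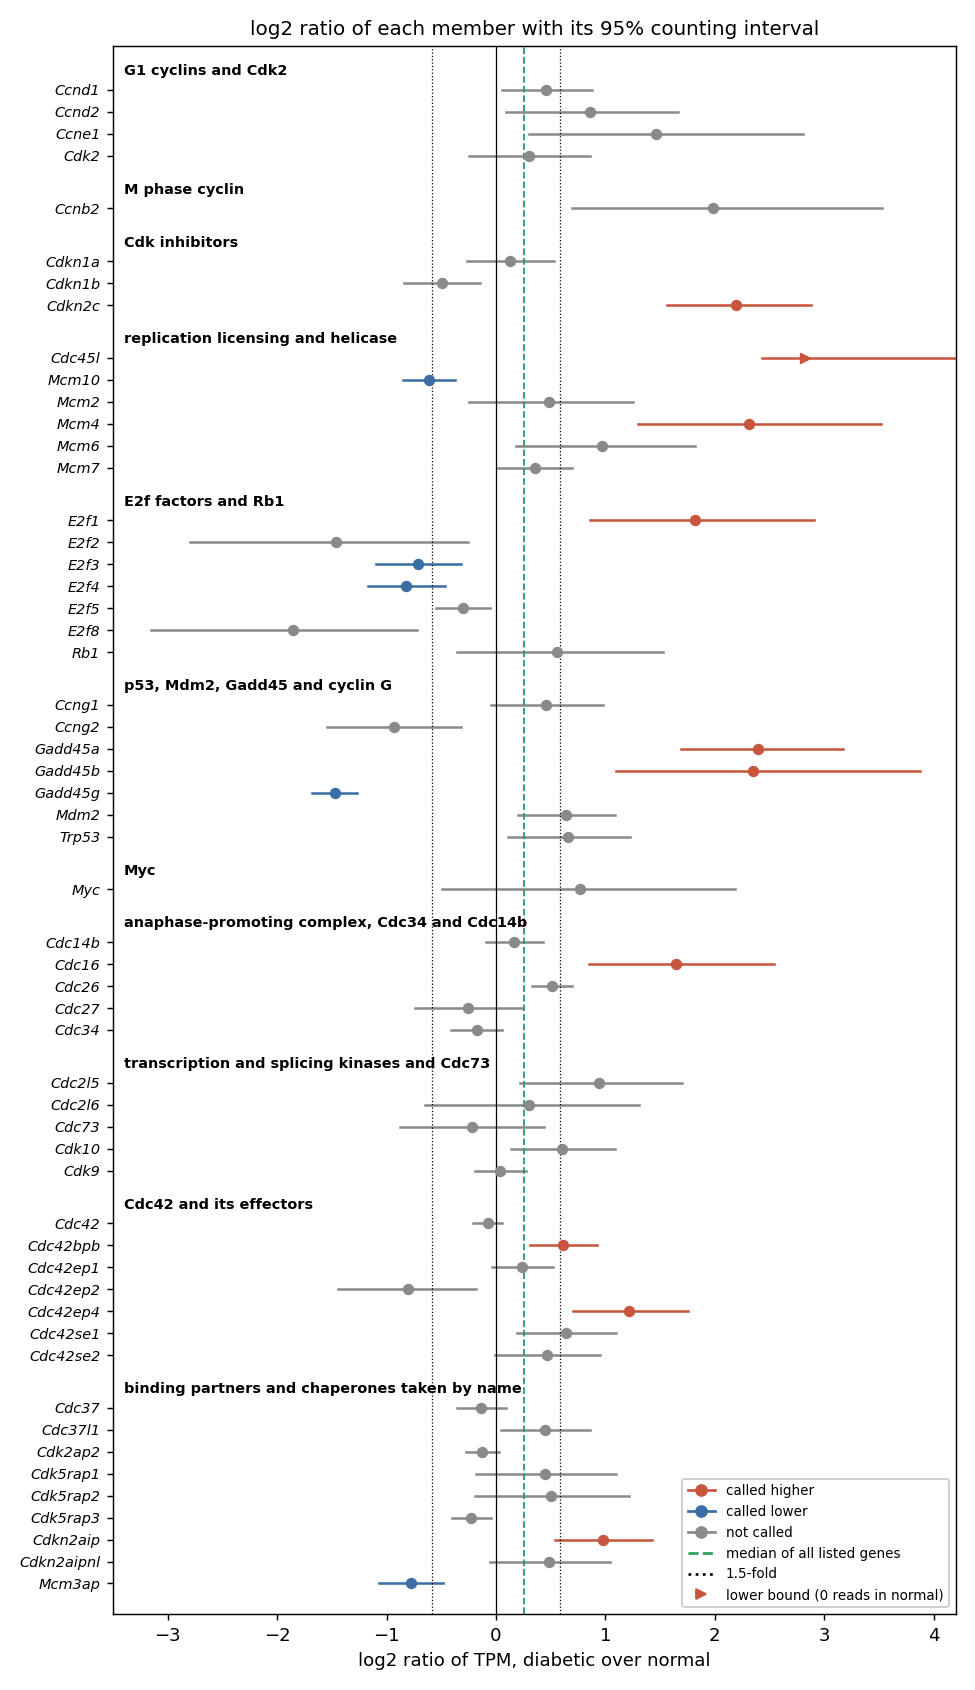
Log2 ratio of TPM, diabetic over normal, of each of the 55 members with its 95% counting interval, grouped by role, with members called higher in red, called lower in blue and not called in grey. The dashed line is the median of all listed genes (0.25) and dotted lines mark 1.5-fold, and the arrow marks the lower bound of Cdc45l.

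The 21 members taken in by name alone, a group refined after the values were seen, spanned a narrower range of ratios. Their median log2 ratio was 0.45, against 0.47 for the 34 cell cycle genes, and they spanned -0.81 to 1.21, against -1.86 to the lower bound of 2.83 for Cdc45l. Both ends of the wider range, E2f8 and Cdc45l, were genes listed only through 1 library. The 34 genes also had lower levels, with a median mean of 5.52 TPM against 7.84 TPM. Of these 21, 3 were called higher and 1 lower, and under TMM scaling 1 was called in each direction. Cdc42, a GTPase of the actin cytoskeleton, had a log2 ratio of -0.08 (-0.21 to 0.06). Cdc42ep4, one of its effectors, was at 4.09 and 9.48 TPM, a log2 ratio of 1.21 (0.70 to 1.75, exact test FDR 3.0e-06). Cdc42bpb, a kinase that Cdc42 activates, was called higher at 1.53-fold.

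Cdkn2aip, which encodes a partner of the Arf tumour suppressor, was at 5.84 and 11.5 TPM and called higher with a log2 ratio of 0.97 (0.54 to 1.43). Of the kinases of transcription and splicing, Cdk9 was at 25.98 and 26.65 TPM, and Cdc2l5, now named Cdk13, had a log2 ratio of 0.94 (0.22 to 1.70) that did not pass. Cdc2l6 (Cdk19), Cdk10 and Cdc73 were not called. The other partners, Cdc37, Cdc37l1, Cdk2ap2, Cdk5rap1, Cdk5rap2, Cdk5rap3, Cdkn2aipnl, Cdc42ep1, Cdc42ep2, Cdc42se1 and Cdc42se2, had log2 ratios from -0.81 to 0.64 and were not called.

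Other genes of the cell cycle that the name rule did not take were looked up in lists, and 118 of them were listed. Of these, 24 were called higher and 5 lower, or 20.3% and 4.24%, against 22.9% and 8.19% of all listed genes. Under TMM scaling the numbers were 20 and 12 of the 118, against 14.9% and 13.4% of all listed genes. With shares near or below those of all genes in the deposited values, the description below names single genes.

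At replication origins, 2 of 9 genes were called higher (22.2%) and 0 lower. Gmnn, which encodes geminin, the protein that blocks relicensing after S phase, was at 2.82 and 7.85 TPM, a log2 ratio of 1.48 (0.87 to 2.12). Gins4, a subunit of the complex that joins Cdc45 and the Mcm ring, had a log2 ratio of 1.38 (0.83 to 1.97). Cdt1 and the listed Orc genes were not called.

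Of 28 genes of the replication fork and nucleotide supply, 6 were called higher (21.4%) and 1 lower (3.57%). Fen1, the flap nuclease of Okazaki fragments, had 5 and 47 reads, a log2 ratio of 2.83 (1.51 to 4.53). Rfc3, a subunit of the clamp loader, had 9 and 53 reads, a log2 ratio of 2.16 (1.13 to 3.37). Rnaseh2b, a subunit of a ribonuclease that removes RNA from DNA, had a log2 ratio of 1.87 (1.08 to 2.75). The one called lower was Rpa1, the large subunit of the single-strand binding complex, at 136 TPM in normal and 49.75 TPM in diabetic liver (log2 ratio -1.45, interval -1.59 to -1.32).

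Among partners of Rb and E2f, 2 of 8 were called higher (25%) and 1 lower (12.5%). Tfdp1, the partner with which E2f factors bind DNA, was at 9.73 and 24.2 TPM, a log2 ratio of 1.32 (0.99 to 1.65), and Lin54, a subunit of the DREAM complex, had a log2 ratio of 1.60 (0.80 to 2.50). Rbbp4, a histone-binding protein found with Rb, was at 23.45 and 6.96 TPM, a log2 ratio of -1.75 (-2.11 to -1.40).

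In mitosis and the spindle checkpoint 1 of 17 genes was called higher (5.88%) and 3 were called lower (17.6%). Bub3, a checkpoint protein, had a log2 ratio of 1.44 (1.15 to 1.74). Wapal, which releases cohesin from chromosomes, had a log2 ratio of -1.33 (-1.55 to -1.11), followed by Mad2l2 at -0.94 and Smc1a, a cohesin subunit, at -0.61. Mki67, a usual marker of dividing cells, was not called, at 1.65 TPM in normal and 1.48 TPM in diabetic liver with 17 and 20 reads (exact test FDR 0.81). Top2a was not analysed here.

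Of the 18 regulators and targets of p53, 5 were called higher (27.8%) and 0 lower, against 22.9% and 8.19% of all listed genes. Ckap2, a spindle protein, had 0 normal and 43 diabetic reads, at least 10.9-fold higher against the limit of 3 reads, and the exact interval of its log2 ratio starts at 3.09. Ddit4, a stress-induced inhibitor of mTOR, had 9 and 64 reads (log2 ratio 2.43, interval 1.42 to 3.63), and Ei24 was at 70.2 and 181 TPM (log2 ratio 1.37, interval 1.25 to 1.49). The damage kinases and 14-3-3 genes had 4 of 17 called higher (23.5%) and 0 lower. Highest of these were Atrip (log2 ratio 1.39) and its partner kinase Atr (log2 ratio 1.06). The ubiquitin ligase list had 2 of 11 called higher (18.2%) and 0 lower. These were Anapc5 at 8 and 61 reads (log2 ratio 2.53) and Skp1a at 103 and 253 TPM (log2 ratio 1.30). Of 7 other cyclins, Ccnc and Ccnh, which act in transcription, were called higher (28.6%), with log2 ratios of 1.18 and 0.88. Ccnf, which acts before mitosis, was at 3.60 and 1.63 TPM (log2 ratio -1.14, interval -1.98 to -0.34) and not called. Ckap2, Fen1, Rfc3, Anapc5 and Ddit4 were under 1 TPM in normal liver and so were listed only through the diabetic library. Of 4 genes of the Myc network, 0 were called by the exact test in either direction.

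Markers of the cell types of liver were measured beside these genes. Of 11 listed markers of Kupffer cells and macrophages, 5 were called lower and 1 higher, or 45.5% and 9.09%. Of all listed genes 8.19% were called lower and 22.9% higher. These 11 markers summed to 354 TPM in normal and 209 TPM in diabetic liver. C1qa held the largest part in normal liver, at 176 and 50.7 TPM, while C1qb was called higher at 38.1 and 57.8 TPM. Cd5l, Cd68, Cd14, Clec4f and Lyz2 were not called. Of 11 endothelial markers 3 were called lower and 1 higher, with sums of 174 and 148 TPM, and of 8 stellate cell markers 1 was called in each direction, with sums of 123 and 164 TPM. The 3 listed lymphocyte markers were at or below 4.67 TPM in both libraries, none was called, and they summed to 7.30 and 5.32 TPM. Of 3 cholangiocyte markers 1 was called higher, with sums of 61.5 and 107 TPM, most of it Spp1 at 57.2 and 103 TPM, while Epcam was at 3.21 and 3.04 TPM and Krt7 at 1.07 and 1.18 TPM. Of 8 listed hepatocyte markers 2 were called higher and 3 lower, with sums of 30006 and 20401 TPM. Called lower were Apoa1 at 14668 and 2875 TPM, Apob at 804 and 147 TPM and Hnf4a at 96.8 and 46.2 TPM, called higher were Pck1 at 668 and 2047 TPM and Cps1 at 130 and 317 TPM, and Alb, which encodes albumin, was at 6801 and 6912 TPM. Cyp2e1 and Ttr were not called. The part of these cell types in the values of the members was not tested.

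Promoters of the members were read from a RefSeq table of GRCm38.p6 that holds 250 bases before and 50 bases after the start of each gene, and 47 of the 55 members had one. Motifs were searched as exact letters on both strands. The E2F words TTTCGCGC, TTTGGCGC or TTTCCCGC were in 5 of the 47 promoters (10.6%), against 3.50% of 6623 listed genes with a promoter and 1.91% of all 27025 promoters. Those 5 were Cdk2, E2f2, E2f3, Mcm6 and Mcm7, of which E2f3 was called lower and the others were not called. The CCAAT box was in 27 member promoters (57.4%), against 38.4% of listed genes and 37.9% of all promoters. The CHR word TTTGAA was in 9 (19.1%), against 11.7% and 18.1%. The E-box CACGTG, a word that clock and Myc proteins bind, was in 3 (6.38%), against 10.7% and 7.24%.

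Parts of 4 promoters are shown because they hold several of these words. Gadd45b was called higher and Gadd45g lower, and Mcm6 and Ccnb2 were not called. They are printed with matches to E2F words, the CCAAT box or the E-box on either strand in capitals. In the Mcm6 stretch, a forward and a reverse E2F word overlap in the first run of capitals.
Mcm6, chr1:128359706-128359825, minus strand: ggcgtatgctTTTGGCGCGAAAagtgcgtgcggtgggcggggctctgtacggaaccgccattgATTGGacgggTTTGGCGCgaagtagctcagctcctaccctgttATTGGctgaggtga
Ccnb2, chr9:70421555-70421654, minus strand: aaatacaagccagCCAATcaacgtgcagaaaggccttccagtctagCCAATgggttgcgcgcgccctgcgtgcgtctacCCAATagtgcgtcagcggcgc
Gadd45b, chr10:80929901-80930000, plus strand: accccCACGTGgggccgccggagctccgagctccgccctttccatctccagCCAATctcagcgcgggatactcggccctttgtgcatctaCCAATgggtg
Gadd45g, chr13:51846525-51846624, plus strand: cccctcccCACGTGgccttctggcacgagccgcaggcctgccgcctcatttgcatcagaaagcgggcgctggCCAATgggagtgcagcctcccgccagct

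The Ccnb2 stretch holds 3 CCAAT boxes. Gadd45b and Gadd45g, which lay on opposite sides of 0, both hold 1 E-box, and 2 and 1 CCAAT boxes. A match of letters is a description of the reference and was not tested against the reads.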

How the data were processed

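The samples were 1 normal and 1 diabetic liver library, grouped by their genotype labels. The authors screened high-quality tags from an Illumina 1G sequencer, removed adaptors, compared clean tags with RefSeq, and deposited values per gene that they call TPM. These RPM values were made by the authors by scaling the tags of each gene to the clean tags of its library, and as deposited they are rounded to 2 decimals, with 0.01 for a gene without tags. The genome build in the submitters' processing notes is mm9. The aligner is not given in the sources used here. The lowest mean of a listed gene was 1.005 TPM, which sets the lower limit of the table.

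Read numbers were recovered by dividing each value by the worth of 1 read. Within 0.0051 TPM, whole reads resulted for 8513 of 8513 normal and 8536 of 8537 diabetic values. No count model was fitted, since each group has 1 library. These reads were compared for all 8551 genes by an exact binomial test, two-sided, with Benjamini-Hochberg adjustment, and 2655 genes met both criteria. It measures counting error only, because the tags carry no molecular identifiers. Against 0 reads, a ratio was given as a bound computed from 3 reads. Intervals are 95% Clopper-Pearson intervals.

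Members may all be named, those called and a fixed set of core genes with full statistics, and up to 3 called genes per direction of each other list. Members and lists were chosen with earlier results of these data known. The roles were refined after the values were seen. Ccnf, Mki67, Cdt1 and the single cell type markers are named outside this rule, after their values were seen. Alternatives were 4 scalings (total of listed genes, TMM with 30% and 5% trimmed, median ratio over genes of at least 10 TPM, and the 75th percentile), pseudocounts of 0.1 and 1 TPM, a minimum of 5 TPM, a 2-fold threshold, the Audic-Claverie test and the fold change alone. The scripts were tested on simulated data. Tests used scipy 1.17.1 and tables pandas 2.3.3 under Python 3.11.15, and figures were drawn with matplotlib 3.10.9. Columns of values per sample that were not used numbered 0.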

Additional observations from a re-analysis of the deposited data

How the results depend on the processing

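With 10 members called higher and 5 lower in the deposited values, 8 were called lower under TMM scaling, under upper-quartile scaling and with the total of listed genes as scale, and under median-ratio scaling 6 were called higher and 10 lower. A minimum mean of 5 TPM left 5 called higher, a 2-fold threshold left 1 called lower, and members under 10 TPM, a setting chosen after seeing the data, held 1 called lower. By the fold change alone 20 were higher and 9 lower. Other counts stayed within 1.5 times, and the median log2 ratio of the members stayed above 0, from 0.15 under median-ratio scaling to 0.58 among members under 10 TPM. Apart from TMM scaling, the 10 TPM limit and the fold alone, the share of all listed genes called was not computed for these settings. Counts of members under the remaining settings therefore cannot be set against other genes. Over 225 values of 25 named members, 193 kept their direction and their side of the criteria, 20 lost a call, 8 gained one and 4 turned their direction. Those 4 were of Cdkn1a, with log2 ratios of -0.13 with the total of listed genes as scale, -0.12 under TMM, -0.17 under median-ratio and -0.14 under upper-quartile scaling. Of the 15 called members, 7 were called under every alternative that was run for them. They were Gadd45g, Gadd45a, Gadd45b, Cdc42ep4, Cdkn2c, Mcm4 and Cdc45l. The minimum mean of 5 TPM was run for the counts only and not for single genes, and Gadd45b, Mcm4 and Cdc45l lie under it. Gadd45b, Mcm4 and Cdc45l were also listed only through the diabetic library, so their direction was fixed by the limit of the table. No support is drawn from their calls under the alternatives. The scalings lower each log2 ratio by 0.25 to 0.31, so lower calls are kept and higher calls lost by construction. No replicate could be left out with 1 library per group. No paired analysis was possible because each group has 1 library. At 10 reads or fewer, as for Ccnb2, Ccne1 and Myc in the normal library, the counting interval spans more than 2 units of log2.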
